A study of Mus musculus with 7 samples.

Results

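Genes annotated as cytokines, growth factors, their receptors and the proteins named after them were followed in 2 sorted populations of mouse mammary gland cells, the side population (SP) and the remaining, non-side population (NSP). The members were the rows of the authors' deposited list of 1632 probe sets whose gene name or description contains chemokine, interleukin, interferon, tumor necrosis factor, growth factor, bone morphogenetic, wingless, frizzled, ephrin, Eph receptor, semaphorin or kit ligand, with Ccl6, Tek and Pdgfra left out. This gave 52 of the 45101 probe sets on the array, for 44 genes. Of the 44 genes, 16 encode ligands and 10 encode receptors. Another 4 encode extracellular regulators of growth factors, 12 encode proteins inside the cell and 2 are named by likeness to a cytokine or growth factor, so the name of the group holds for 26 genes and the other 18 carry its words in their annotation.

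Cells of mouse mammary gland were stained with a Hoechst dye and sorted by its blue and red fluorescence into SP cells, which hold little dye because they pump it out, and NSP cells. RNA of 3 SP and 3 NSP sorts was amplified in 2 rounds and measured on Affymetrix mouse expression arrays, and 1 further array carried a universal mouse reference RNA from Stratagene. The labels give no strain, age, treatment or number of animals, so the p-values rest on the spread among these arrays, part of which may be technical. SP and NSP samples carry the numbers 1 to 3 in the labels, and a pair below is the SP and NSP sample of 1 number.

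Cytokines and growth factors are secreted or membrane-bound proteins that bind receptors on the same or on neighbouring cells, and the receptors pass the signal on through kinases, STAT factors, SMAD factors, NF-kB or beta-catenin. In the mammary gland, ducts grow under EGF receptor, FGF, IGF and WNT signals that pass between epithelium and stroma, while TGF-beta holds growth back. Chemokines attract leukocytes, and semaphorins and ephrins guide moving cells and growing vessels.

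The authors had put every member on their list because it differed between SP and NSP on these same arrays: per the file headers, by a paired p of at most 0.05, a difference of at least 0.185 and present calls on at least 20 percent of arrays in each group. Differences between SP and NSP below are therefore descriptions, and counts of direction among members are not independent evidence of that direction. In the authors' deposited table the smallest difference among the genes described here was that of Fzd7, at -0.19, just inside the minimum. All 52 probe sets lay above the signal floor on all 6 arrays, so no member was lost to the filter.

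Values are MAS5 signals per probe set, with no unit. Differences are SP minus NSP of log2 signals, ± the moderated standard error of limma, with 3 arrays against 3. Adjusted p-values are limma's, after Benjamini-Hochberg adjustment over all 38115 probe sets tested. At 0.05, 0 of the 52 member probe sets passed, where 6 of all probe sets tested did (0.0157%, made up of 0.00262% higher in SP and 0.0131% higher in NSP). At an unadjusted p under 0.05 there were 22 of 52 members, against 8.72% of all probe sets tested. The authors had selected the members by a paired p on these same arrays, and this share over their list was not computed. The words higher and lower below thus compare means. The smallest adjusted p of any member was 0.126, for Pf4. Variance was also modelled with an intensity trend, and 11 members passed then, 6 higher in SP and 5 higher in NSP. Of all probe sets tested 1.00% passed that fit (0.352% and 0.648%), and of the authors' list 12.9%. With the trend and the sample number as a block together 26 members passed, 18 higher in SP and 8 higher in NSP. Of all probe sets 2.47% passed there (1.16% and 1.31%), and of the authors' list 27.9%. With the block alone 0 members passed, as did 0% of all probe sets. Means lay at least 2-fold apart for 11 of 52 members, against 7.62% of all probe sets tested and 12.8% of the authors' list.

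Signals of markers of other cell types differed between the sorts. A marker could be named only through the authors' list, so each had been selected as differing on these same arrays. Named were 14 of 22 endothelial, 3 of 8 fibroblast, 6 of 14 luminal, 5 of 15 leukocyte and 6 of 10 basal markers. Of these 0 passed limma. The summed signal of the 14 named endothelial markers was 12866 to 13742 in SP and 4570 to 4745 in NSP arrays, and that of 3 fibroblast markers 16005 to 18323 in SP and 8174 to 10871 in NSP. In NSP cells the sums were higher for 6 luminal markers (34244 to 40926, against 10683 to 19347 in SP) and for 5 leukocyte markers (3446 to 11174, against 502 to 760). All 6 basal markers were lower in SP, with a median difference of -1.55 and a range from -2.42 (Trp63) to -0.21 (Acta2, whose signals make up most of their sum). For Actb, the 3' control probe set exceeded the 5' one by a mean of 3.85 in SP and 3.28 in NSP on the log2 scale, more in SP in 3 of 3 pairs. For Gapdh the means were 3.65 in SP and 2.87 in NSP, again more in SP in 3 of 3 pairs. These stand beside all differences below, and their part in them was not tested. In sorted bulk samples, more cells of a type and more RNA per cell cannot be told apart.

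Ligands had higher signals in SP cells more often than lower ones: 11 of 16 genes, with a median difference of 0.54, beside -0.01 over all probe sets tested and -0.12 over the authors' list. SP was higher for 49.2% of all probe sets tested and for 45.3% of the authors' list. SP and NSP arrays did not overlap for 12 of the 16, 10 with SP higher and 2 with NSP higher. Arrays did not overlap for 14.3% of all probe sets tested (6.74% with SP higher, 7.57% with NSP higher) and for 49.8% of the authors' list (22.4% and 27.3%). The higher ligands were mostly inflammatory cytokines and chemokines, growth factors of stroma and epithelium, and 2 semaphorins.

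**Figure D1:**
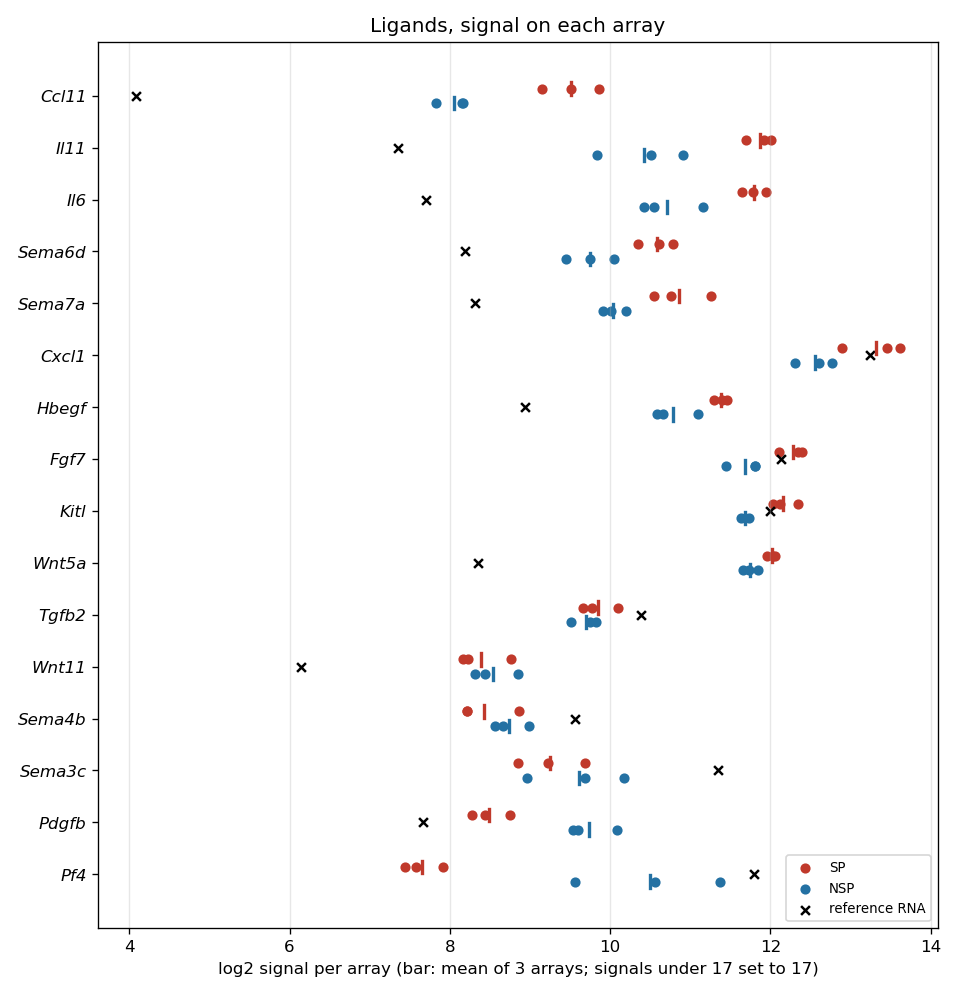
Log2 signal (x axis) of the 16 ligand genes (y axis, ordered by difference) on the 3 SP arrays, the 3 NSP arrays and the reference array. Points are arrays and bars are group means. SP points lie above all NSP points for 10 ligands from Ccl11 to Wnt5a, and below them for Pdgfb and Pf4.

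Of the chemokines, Ccl11 (eotaxin, which attracts eosinophils) had the larger difference among those higher in SP. Its signals were 730, 932 and 566 in SP and 287, 228 and 284 in NSP samples 1 to 3. Every SP array lay above every NSP array, and the difference was 1.46 ± 0.25 (2.75-fold, adjusted p = 0.138). Cxcl1, which attracts neutrophils, had signals of 11256, 7597 and 12529 in SP and 7000, 5051 and 6216 in NSP samples. The groups did not overlap, sample 2 was the lowest of both, and the difference was 0.76 ± 0.26 (adjusted p = 0.472). The other 2 probe sets of Cxcl1 differed by 0.82 and 0.75, and on both the groups overlapped.

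Pf4 (platelet factor, a chemokine of the megakaryocyte lineage) ran the other way. It had signals of 242, 174 and 192 in SP and 2644, 1508 and 756 in NSP samples. The NSP arrays spanned a wide range, and even the lowest stood above every SP array. The difference was -2.85 ± 0.47 (7.20-fold higher in NSP, adjusted p = 0.126). In the authors' deposited table it was -3.70. Pf4 moved with the leukocyte markers: their summed signals were 11174, 5422 and 3446 in NSP samples 1 to 3, in the same order as Pf4, and 760, 502 and 603 in SP. Of the 5 markers, Ptprc, which encodes CD45, Laptm5, Cd68 and Ctss were higher on every NSP array than on any SP array, by differences of -2.72, -4.91, -0.96 and -3.81. The fifth, Lcp1, differed by 0.01, with overlapping groups. Ptprc had signals of 53.2, 75.8 and 2.1 in SP, the last of them under the floor of 17, and 558, 218 and 159 in NSP. The part of leukocytes in the Pf4 difference was not tested.

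The interleukins Il6 and Il11 belong to 1 family, whose receptors share the subunit gp130. Il6 had signals of 3529, 3196 and 3955 in SP and 2296, 1376 and 1499 in NSP, with no overlap, and differed by 1.08 ± 0.26 (2.11-fold, adjusted p = 0.258). Il11 had signals of 3324, 4107 and 3869 in SP and 918, 1456 and 1930 in NSP. It differed by 1.45 ± 0.31 (2.74-fold, adjusted p = 0.216), with no overlap either. Both genes were thus higher in SP by more than 2-fold in the means. Within pairs SP was higher in 3 of 3 for each, by 0.62 to 1.40 for Il6 and by 1.00 to 1.86 for Il11.

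The start regions of these cytokine genes are shown because Cxcl1, Il6 and Il11 had higher signals in SP together and Pf4 did not. They are RefSeq sequences of the assembly GRCm38.p6, from 250 bases before to 50 bases after the start, 5′ to 3′ on the gene's strand. Capitals mark matches to GGANTTTCC, a form of the NF-kB site, or to TGANTCA, the AP-1 site. No region was listed for Ccl11, the ligand with the largest difference among those higher in SP.
Cxcl1, chr5:90890995-90891294, plus strand: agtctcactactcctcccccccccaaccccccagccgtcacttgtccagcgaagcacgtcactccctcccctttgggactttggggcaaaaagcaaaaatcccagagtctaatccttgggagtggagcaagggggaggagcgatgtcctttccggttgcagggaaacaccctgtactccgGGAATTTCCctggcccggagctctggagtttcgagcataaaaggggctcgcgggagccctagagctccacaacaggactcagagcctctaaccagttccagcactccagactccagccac
Il6, chr5:30012864-30013163, plus strand: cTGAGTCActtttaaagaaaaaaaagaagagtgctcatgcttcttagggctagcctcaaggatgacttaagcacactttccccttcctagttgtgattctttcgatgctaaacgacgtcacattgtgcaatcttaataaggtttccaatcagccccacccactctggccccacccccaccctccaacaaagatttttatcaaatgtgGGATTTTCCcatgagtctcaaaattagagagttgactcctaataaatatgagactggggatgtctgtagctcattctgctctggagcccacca
Il11, chr7:4778092-4778391, minus strand, the one of its 2 start regions that holds a match: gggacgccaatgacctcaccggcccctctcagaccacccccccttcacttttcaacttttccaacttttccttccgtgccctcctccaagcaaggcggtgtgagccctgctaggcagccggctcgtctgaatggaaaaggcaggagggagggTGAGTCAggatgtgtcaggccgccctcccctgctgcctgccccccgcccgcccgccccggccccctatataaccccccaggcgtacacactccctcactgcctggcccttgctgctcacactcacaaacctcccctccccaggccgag
Pf4, chr5:90772185-90772484, plus strand: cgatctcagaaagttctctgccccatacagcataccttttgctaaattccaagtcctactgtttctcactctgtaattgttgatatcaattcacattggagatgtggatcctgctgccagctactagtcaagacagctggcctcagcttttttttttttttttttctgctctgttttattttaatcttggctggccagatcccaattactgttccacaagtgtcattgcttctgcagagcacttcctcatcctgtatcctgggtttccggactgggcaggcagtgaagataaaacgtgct

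A total of 5 motifs was searched on both strands (GGANTTTCC, TGANTCA, TGACGTCA, TTCCNNGAA and TATAAA), picked with the identity of the genes known. The ligands are grouped by their direction on these arrays, so the shares below are descriptions. Whether any group held more matches than other genes was not tested. The NF-kB form stood at bases 181 to 189 of the Cxcl1 region and at bases 208 to 216 of the Il6 region. It was found in 5 of 37 members with a listed region (Cxcl1, Il6, Il1rl1, Ifngr2 and Tnfaip3) and in 1.45% of 27025 genes. By role it was in 2 of 8 ligands higher in SP, 0 of 4 higher in NSP and 2 of 9 receptors. The AP-1 form stood at bases 2 to 8 of the Il6 region and bases 153 to 159 of the Il11 region, and in 8.97% of all genes. It was found in 7 of 37 members with a region, which were Il6, Il11, Il13ra2, Tnfaip3, Ifi35, Ifi203 and Igfbp2. By role these were 2 of 8 ligands higher in SP, 0 of 4 higher in NSP and 1 of 9 receptors, and Igfbp2 was lower in SP. The Pf4 region held none of the 5. The CRE form TGACGTCA was in 1 of 37 members with a region (Ltbp1) and 2.03% of genes. The STAT form TTCCNNGAA was in 1 of 37 (Il18r1) and 5.60% of genes, and TATAAA in 7 of 37 and 15.7%. No 2 matches overlap in the regions printed, and a match says only that these letters are there.

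Growth factors acting on epithelium and stroma were higher in SP by smaller amounts. Hbegf, a membrane-anchored ligand of the EGF receptor, had signals of 2506, 2824 and 2687 in SP and 1536, 1621 and 2183 in NSP. The groups did not overlap, and the difference was 0.60 ± 0.21 (1.52-fold, adjusted p = 0.474). Fgf7, which stromal cells make and epithelial cells receive, differed by 0.60 ± 0.20, and its second probe set, on which the groups overlapped, by 0.40. Kitl, the ligand of the receptor KIT, differed by 0.48 ± 0.18. The 2 probe sets of Tgfb2 shared a direction and differed in whether the groups overlapped. The brighter one differed by 0.15 ± 0.21 with overlapping groups, by 0.06 without NSP replicate 3, by 0.03 without SP replicate 2 and by 0.24 without SP replicate 1. The other differed by 0.35 without overlap, with SP higher in 3 of 3 pairs.

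Pdgfb, the growth factor with which vessels recruit pericytes, was the one growth factor gene higher in NSP. It had signals of 310, 346 and 432 in SP and 776, 1090 and 744 in NSP. The groups stood apart, with a difference of -1.25 ± 0.24 (2.38-fold higher in NSP, adjusted p = 0.179) and -0.77 in the authors' deposited table. Its direction was thus opposite to that of the 14 endothelial markers named through the authors' list, which were all higher in SP.

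The 2 WNT ligands had small differences. Wnt5a, which mostly signals without beta-catenin, had signals of 4175, 4269 and 3988 in SP and 3231, 3675 and 3415 in NSP. These did not overlap, with a difference of 0.27 ± 0.17 (adjusted p = 0.755). For Wnt11 the 2 expression measures disagreed. Its signals were 287, 300 and 436 in SP and 317, 462 and 347 in NSP, overlapping, with a difference of -0.15 ± 0.26 (adjusted p = 0.936), whereas the authors' deposited table gave -1.10. Without NSP replicate 2 the difference was 0.01.

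Of the 4 semaphorins, 2 were higher in SP and 2 in NSP. The GPI-anchored Sema7a had signals of 1740, 2457 and 1497 in SP and 1171, 961 and 1028 in NSP, and the transmembrane Sema6d 1310, 1563 and 1761 in SP and 701, 862 and 1059 in NSP. Neither overlapped, and the differences were 0.82 ± 0.24 (adjusted p = 0.375) and 0.83 ± 0.24 (adjusted p = 0.356). The secreted Sema3c had signals of 460, 825 and 599 in SP and 497, 1159 and 824 in NSP, and the transmembrane Sema4b 464, 297 and 296 in SP and 507, 380 and 404 in NSP. Both were lower in SP in 3 of 3 pairs while the groups overlapped, by -0.35 ± 0.38 and -0.31 ± 0.26 (adjusted p = 0.879 and 0.831). Single arrays moved both values by over 1.5 times. Sema3c stood at -0.07 without NSP replicate 2, -0.15 without SP replicate 1, -0.57 without SP replicate 2 and -0.68 without NSP replicate 1. Sema4b stood at -0.19 without NSP replicate 1, -0.20 without SP replicate 2 or 3 and -0.53 without SP replicate 1.

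Of the 10 receptor genes 7 were higher in SP, with a median difference of 0.46. Arrays did not overlap for 7 of the 10, 5 with SP higher and 2 with NSP higher, beside 14.3% of all probe sets tested and 49.8% of the authors' list (22.4% and 27.3%). Whether receptors and ligands differed in this was not tested. Means lay over 2-fold apart for Ifngr2, with SP higher, and for Il18r1, with NSP higher.

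**Figure D2:**
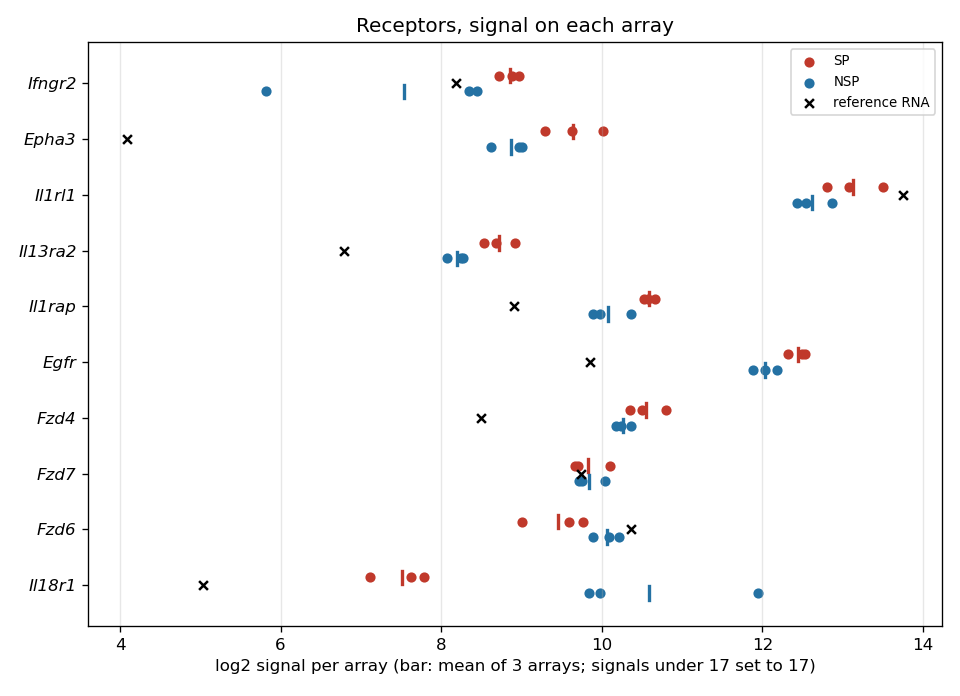
Log2 signal (x axis) of the 10 receptor genes (y axis, ordered by difference) on the 3 SP arrays, the 3 NSP arrays and the reference array. Points are arrays and bars are group means. All 3 SP points of Il18r1 lie below the NSP points, and 1 NSP array of Ifngr2 lies far below the other two.

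Il18r1, which encodes the binding chain of the interleukin 18 receptor, had signals of 197, 138 and 221 in SP and 1009, 3946 and 914 in NSP. NSP sample 2 was the highest by far, and all NSP arrays stood above the SP arrays. The difference was -3.08 ± 0.60 (8.45-fold higher in NSP, adjusted p = 0.179). Without NSP replicate 2 it was -2.40, and Pf4 without that array -2.82. In the authors' deposited table Il18r1 stood at -2.88, behind Pf4. Both Il18r1 and the sum of the leukocyte markers were higher on all 3 NSP arrays than on any SP array. Within NSP their order differed, unlike that of Pf4. The leukocyte sum was 11174, 5422 and 3446 in NSP samples 1 to 3, highest in sample 1, and Il18r1 was highest in sample 2. The part of leukocytes in the Il18r1 difference was not tested.

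The receptor chains of interleukin 33 ran the other way. Il1rl1 binds interleukin 33 and Il1rap joins it as the signalling partner. Il1rl1 had signals of 8687, 11611 and 7143 in SP and 5517, 7498 and 5951 in NSP. The groups overlapped, while SP was higher in 3 of 3 pairs, by 0.52 ± 0.25 (adjusted p = 0.660), and by 0.33 without SP replicate 2. Its second probe set differed by 0.65. Il1rap had signals of 1475, 1528 and 1624 in SP and 1008, 946 and 1317 in NSP, without overlap, and differed by 0.51 ± 0.20 (adjusted p = 0.549).

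Il13ra2, a decoy receptor of interleukin 13, had signals of 484, 372 and 411 in SP and 303, 270 and 309 in NSP. The groups stood apart by 0.52 ± 0.19 (adjusted p = 0.510), against 1.26 in the authors' deposited table. Ifngr2, a chain of the interferon gamma receptor, had signals of 472, 501 and 421 in SP and 324, 56.5 and 350 in NSP. The groups did not overlap, but the difference of 1.32 ± 0.72 (adjusted p = 0.703) rested on 1 array: without NSP replicate 2 it was 0.46, and the authors' deposited table gave 0.32, with present calls on 33 percent of arrays in each group.

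Egfr and its ligand Hbegf were both higher in SP. The receptor had signals of 5894, 5098 and 5789 in SP and 4657, 3784 and 4193 in NSP. Every SP array lay above the NSP arrays, with a difference of 0.41 ± 0.18 (adjusted p = 0.610). Epha3, a receptor of ephrin-A ligands, had signals of 1031, 625 and 792 in SP and 499, 394 and 515 in NSP, also without overlap, and differed by 0.78 ± 0.25 (1.71-fold, adjusted p = 0.429).

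The 3 frizzled receptors, which bind WNT ligands, did not share a direction. Fzd6 had signals of 512, 774 and 874 in SP and 947, 1185 and 1088 in NSP, apart by -0.60 ± 0.26 (adjusted p = 0.596), and by -0.38 without SP replicate 1. Fzd4, which also serves as a receptor of norrin in vessels, was higher in SP by 0.29 ± 0.20 and overlapped, with 0.17 without SP replicate 1. Fzd7 had close signals in both, with 812, 830 and 1098 in SP and 844, 864 and 1050 in NSP. Its difference was -0.02 ± 0.21, which turned to 0.00092 after centring arrays on their medians and to 0.0082 after quantile normalization.

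Regulators outside the cell held some of the larger differences, and 3 of the 4 were lower in SP. Igfbp5, which binds insulin-like growth factors, had signals of 6636, 12576 and 11832 in SP and 2030, 2599 and 4712 in NSP. The groups did not overlap and the difference was 1.77 ± 0.41 (3.41-fold, adjusted p = 0.247), the largest among members higher in SP. Igfbp2 of the same family had signals of 91.1, 224 and 178 in SP and 460, 249 and 314 in NSP, and differed by -1.10 ± 0.41 (adjusted p = 0.516), by -0.72 without SP replicate 1 and by -0.58 in the authors' deposited table. Spint2, an epithelial inhibitor of the protease that activates hepatocyte growth factor, differed by -1.31 ± 0.26 (2.48-fold higher in NSP, adjusted p = 0.193) without overlap. Ltbp1, which holds latent TGF-beta in the matrix, differed by -0.76 ± 0.35 with overlapping groups, and by -0.46 without SP replicate 3.

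**Figure D3:**
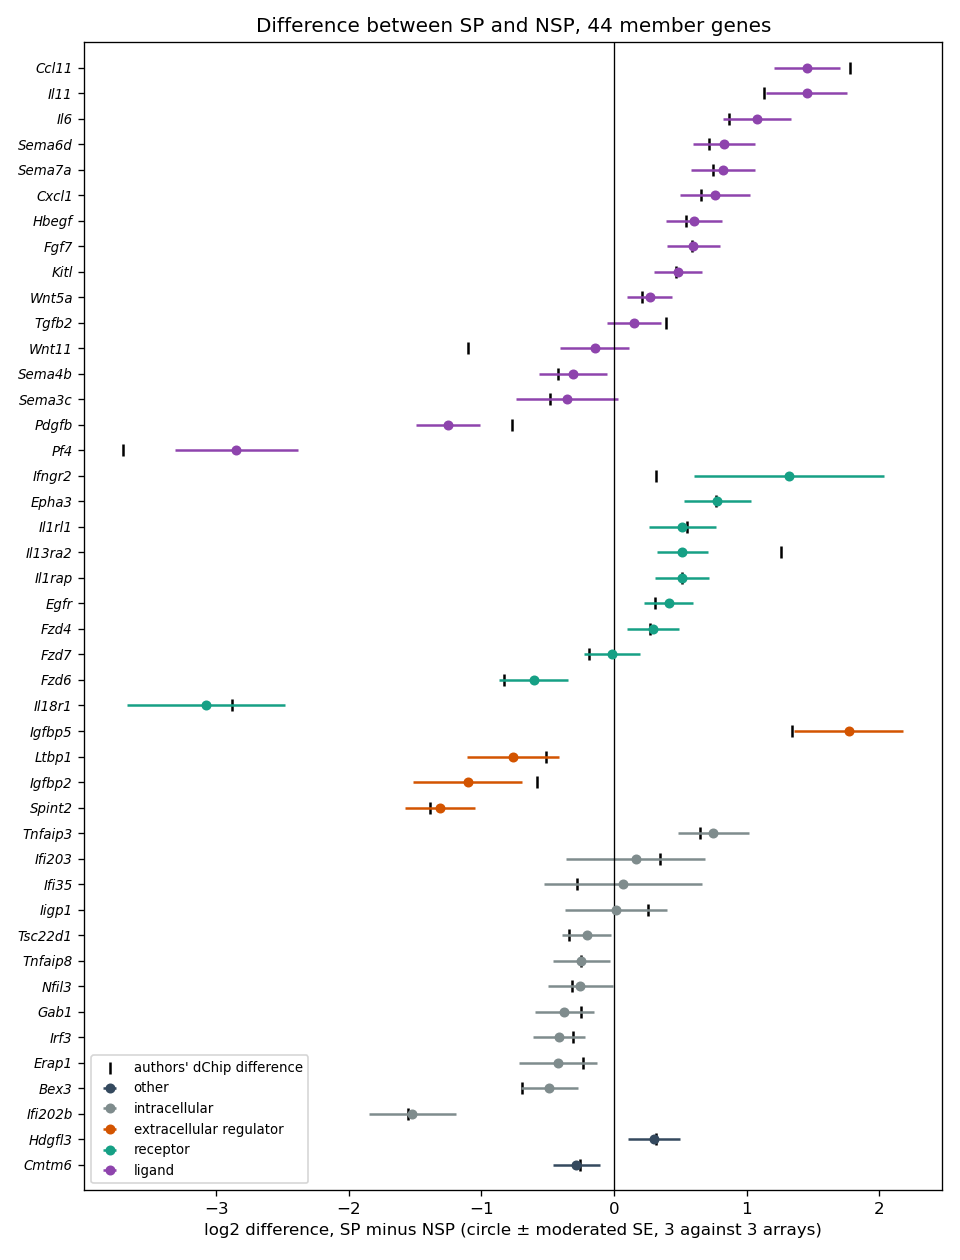
Difference of log2 signal, SP minus NSP (x axis), of the 44 member genes (y axis) by role. Circles are differences from the MAS5 signals with their moderated standard errors (3 against 3 arrays), and ticks are differences in the authors' deposited table. Ligands and receptors lie mostly to the right of 0, from 0.15 to 1.46 and from 0.29 to 1.32, while Il18r1 and Pf4 lie furthest to the left, at -3.08 and -2.85.

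Among the 12 genes of proteins inside the cell, 8 were lower in SP and the median difference was -0.25. Tnfaip3, which encodes A20, a brake on NF-kB signalling, was the clearest exception. Its signals were 1598, 2102 and 2783 in SP and 1046, 1404 and 1341 in NSP, without overlap, with a difference of 0.75 ± 0.27 (adjusted p = 0.496). Ifi202b, an interferon-activated gene, was lower in SP by -1.52 ± 0.33 (2.87-fold higher in NSP, adjusted p = 0.221), and its second probe set by 0.52 less. It has near-identical copies that its probe sets may not tell apart. The adaptors and regulators Gab1, Bex3, Irf3, Nfil3, Tnfaip8, Erap1 and Tsc22d1 lay between -0.49 and -0.21. For 5 of them 1 array moved the value by over 1.5 times. Without NSP replicate 2, Bex3 stood at -0.32, Tnfaip8 at -0.10 and Tsc22d1 at -0.12. Erap1 stood at -0.17 without SP replicate 1, and Nfil3 at -0.12 without NSP replicate 3, -0.15 without SP replicate 2 and -0.44 without SP replicate 3. Of the remaining members, Cmtm6 differed by -0.28 ± 0.18 and Hdgfl3 by 0.30 ± 0.19, or 0.20 without SP replicate 2.

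The interferon-induced genes Ifi35 and Ifi203 differed more by sample number than by sort. Ifi35 had signals of 359, 129 and 368 in SP and 357, 122 and 341 in NSP. Ifi203 had 1215, 501 and 1375 in SP and 1190, 474 and 1058 in NSP. Sample 2 was the lowest of both populations for each, at least 2-fold under the mean of samples 1 and 3. That held for 2 of 44 members and for 262 of all 38115 probe sets tested (0.687%). Iigp1, an interferon-inducible GTPase, was also lowest in sample 2, with 621 in SP and 677 in NSP against 840 to 1399 elsewhere. The differences between the sorts were 0.07 ± 0.60 for Ifi35, 0.16 ± 0.53 for Ifi203 and 0.02 ± 0.39 for Iigp1. These standard errors include the spread between sample numbers. Within pairs SP was higher in 3 of 3 for Ifi35, by 0.01 to 0.11, and for Ifi203, by 0.03 to 0.38. Ifi35 stood at -0.28 in the authors' deposited table, the 1 member probe set whose sign differed there.

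**Figure D4:**
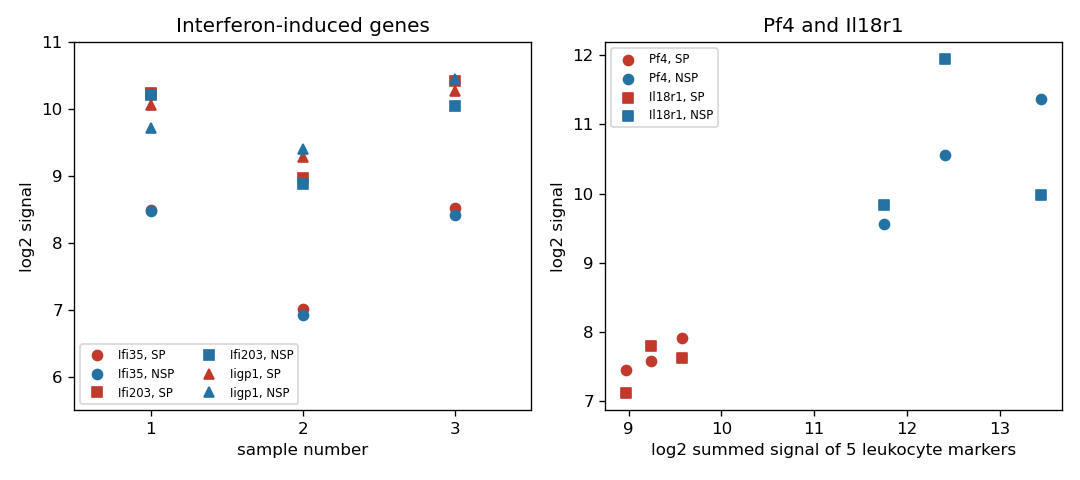
Left, log2 signal (y axis) of Ifi35, Ifi203 and Iigp1 by sample number (x axis) in SP and NSP cells, with sample 2 lowest in both. Right, log2 signal (y axis) of Pf4 and Il18r1 against the log2 summed signal of 5 leukocyte markers (x axis), 1 point per array, with all NSP arrays to the upper right of the SP arrays.

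Position in the genome was not used in choosing the members. In the gene order of GRCm38.p6, pairs of member genes with up to 20 protein-coding genes between them were sought. In the 4 closest pairs, with at most 2 genes between, the partners had differences of opposite sign. The share of such pairs among other genes was not computed, so this is a description. Igfbp2 (-1.10) and Igfbp5 (1.77) are direct neighbours on chromosome 1. So are Il18r1 (-3.08) and Il1rl1 (0.52), and Ifi202b (-1.52) and Ifi203 (0.16), also on chromosome 1. Cxcl1 (0.76) and Pf4 (-2.85) lie on chromosome 5 with 2 genes between them. The sign of Ifi203 turned when single arrays were left out, so its pair has no settled direction. The only other pair found, Fgf7 and Sema6d on chromosome 2 with 13 genes between, shared its direction (0.60 and 0.83).

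The reference array was not used in choosing the members either. It was 1 array, so its comparison has no replicate and no test, and whether its RNA was amplified like that of the sorted cells is not given in the sources used here. All 6 sorted-cell arrays were above it for 20 of the 44 genes and below it for 11, beside 29.4% and 26.7% of all probe sets tested and 34.2% and 37.1% of the authors' list. Among ligands 9 of 16 were above, and among receptors 6 of 10. Il11 had a reference signal of 163, with SP and NSP means 4.52 and 3.07 above it on the log2 scale, and Il6 one of 209, with 4.08 and 3.01. Wnt5a (326 in the reference) stood 3.67 above it in SP, and Egfr (925) 2.59 in SP and 2.18 in NSP. The reference signals of Ccl11 and Epha3 were both 5.0, under the floor of 17. On this scale all 6 sorted arrays, NSP included, thus held more signal of Il11, Il6, Wnt5a, Egfr, Ccl11 and Epha3 than the reference did. The ligands Cxcl1, Kitl and Fgf7 had arrays on both sides of it, at reference signals of 9735, 4073 and 4477. Relative to it their SP means stood at 0.07, 0.17 and 0.16 and their NSP means at -0.69, -0.31 and -0.44. Pf4, Sema3c, Sema4b, Tgfb2, Fzd6 and Il1rl1 were the ligands and receptors below the reference on all 6 arrays, with reference signals of 3568, 2604, 756, 1333, 1320 and 13811. For Tgfb2 this held on the brighter of its 2 probe sets and not on the other.

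Fixed lists of the surrounding pathways held more genes than the words of the rule reach, but a gene could be named only through the authors' list. In all 13 lists together 59 genes were named, members included. Of these 0 passed limma in either direction, and 25 had an unadjusted p under 0.05, beside 0.0157% and 8.72% of all probe sets tested. All could be named only because the authors had listed them as differing on these arrays. Of 14 genes of the VEGF and angiopoietin list 5 were named, all higher in SP, led by the VEGF receptors Kdr (0.98 ± 0.23) and Flt1 (1.35 ± 0.31). Of 23 genes of the EGF list 3 were named, all higher in SP, among them epiregulin, Ereg, another EGF receptor ligand. Ereg had signals of 3452, 5619 and 4034 in SP and 2041, 1937 and 1395 in NSP, apart by 1.28 ± 0.27 (adjusted p = 0.215). With Hbegf and Egfr, the named EGF receptor ligands and their receptor were thus all higher in SP.

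Of 31 genes of the semaphorin list 9 were named, 7 higher in SP, among them the receptor Plxnd1 (0.81 ± 0.23). The TGF-beta and BMP list had 9 named of 49, 6 higher in SP, with the BMP antagonist Grem1 at 0.95 ± 0.30 and the co-receptor Eng at 0.72 ± 0.26. Of 57 WNT genes 8 were named and 6 were lower in SP, with Dkk3 at -0.57 ± 0.21. The interleukin and JAK-STAT list had 8 named of 71, 6 higher in SP, and the FGF list 3 of 21, all 3 higher. Medians of these lists were 0.76 (VEGF), 0.60 (EGF), 0.40 (semaphorin), 0.22 (TGF-beta and BMP), -0.19 (WNT), 0.55 (interleukin) and 0.38 (FGF), beside -0.12 over the authors' list. The chemokine list had 3 named of 53 (median 0.76), interferon response 5 of 43 (0.02), IGF and HGF 3 of 19 (0.30), TNF 2 of 46 (0.25), PDGF and KIT 2 of 11 (-0.39) and ephrin 1 of 19 (0.78).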

How the data were processed

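Per the submitters' processing notes the deposited value table holds MAS5 signal intensities, 45101 probe sets on 7 arrays, whose version and scaling target are not stated in these sources. Array medians lay between 79.3 and 97.2, so the intensity values were used as deposited. The number of arrays limits the precision. Per the series' design text the authors normalized with dChip to a reference array and removed 2 chips. That text gives 4 replicates and 2 reference chips, whereas the deposited values hold 3 SP arrays, 3 NSP arrays and 1 reference array. Their deposited list gives dChip values read as log2, group differences, present calls in percent, and the paired p-value with its test statistic, a score; per the file headers the authors selected on these. The headers do not name the log base, and log2 is a reading from the values.

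For this report, a floor of 17 was applied to the intensities (the 20th percentile over the 6 SP and NSP arrays pooled) and log2 was taken. The 38115 probe sets above 17 on at least 3 of 6 arrays, without 64 control probe sets, were fitted with limma 3.58.1 in R 4.3.3 (lmFit, eBayes, two-sided), tested on simulated data. Gene names came from the authors' list through a GRCm38.p6 gene table (1492 of 1632 probe sets with 1 symbol). A gene with several probe sets is shown by the brightest.

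Of 3 pairs, 2 share a day in the labels, and the authors compared pairs. In the other pair, that of sample number 2, the labelled dates differ in the year. Deviations from group means correlated at 0.039, 0.041 and 0.12 within pairs, and at -0.064 to 0.021 between SP and NSP samples of different number. Every value within pairs was thus above those between them. The sample number is an alternative block. All members may be named, the 6 ligands and 6 receptors of largest difference each way and ligands with a listed receptor in full, and other genes only among the 2 of smallest p of a list. Members, roles, lists and alternatives were chosen with earlier results of these data known.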

Additional observations from a re-analysis of the deposited data

How the results depend on the processing

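Alternatives changed normalization, floor, filter, variance model or pairing, or left out 1 array. All 52 member probe sets were tested in each. No member probe set passed limma, as in the comparison reported, except with an intensity trend (11) and with the replicate block and the trend together (26). With the replicate block alone 0 passed (25 at an unadjusted p under 0.05), and without each array in turn 0 to 0 (14 to 20 unadjusted). Over all probe sets tested, against 6 called, limma called 0 after quantile normalization, with the offset of 16 and with the replicate block (3453, 3408 and 3758 at an unadjusted p under 0.05), 3 after centring, 24 and 25 with the floor at the 10th and 40th percentile, 15 above the floor on all 6 arrays, 32 with no filter, 381 with the trend and 942 with block and trend. Without each array it called 0 to 0 (2916 to 3457 unadjusted). Of 755 gene differences under an alternative, 17 in 5 genes turned sign, the cause of which was not tested. The intensity trend, the replicate block, the filters and the lower floor leave the difference of a member as it is. No sign could turn under these, so the 755 include differences that were fixed in advance. With 1 array left out Iigp1 ranged from -0.21 to 0.31, Ifi35 from -0.44 to 0.57, Ifi203 from -0.25 to 0.62, Wnt11 from -0.34 to 0.013 and Fzd7 from -0.16 to 0.084. Fzd7 was also 0.00092 after centring and 0.0082 after quantile normalization, and Ifi35 -0.28 in the authors' deposited table.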
